A study of Macaca mulatta with 449 samples.

Results

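This report follows 10 genes that are used to recognize the granule cells and Purkinje cells of the cerebellum (PCP2, CA8, ITPR1, FAT2, CDH15, CRTAM, ZIC1, ZIC2, ZIC4 and IL16) through 51 sub-regions of the rhesus macaque brain. The members were taken by gene symbol, and 9 of the 10 had a row among the 30807 genes of the count table. PCP2 was not analysed here. The values are Ribo-zero RNA-seq counts of 1 sample from each sub-region of each of 8 rhesus macaques, named Rhesus 2, 3, 4, 6, 7, 8, 10 and 11. The 2 cerebellar sub-regions were the cerebellar cortex (CBC) and the cerebellar vermis (CBV), with 16 samples, and the other 49 sub-regions gave 392 samples. These 49 comprised 31 sub-regions of the cerebral cortex and 18 others, and all 51 fell into 16 region groups. The labels name no treatment, and each animal contributed to every sub-region. Of the 8 animals, 4 were young (3.2 to 5 years: the females Rhesus 4 and 10, the males Rhesus 7 and 8) and 4 were mid-aged (9.8 to 10 years: the females Rhesus 6 and 11, the males Rhesus 2 and 3). Levels are CPM, a gene's counts in a sample scaled to a common library size with edgeR's TMM factors, which remove differences in depth but not in gene length, so levels are compared between samples and not between genes.

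The cerebellar cortex is built around Purkinje cells, its only output neurons, and granule cells, the most numerous neurons of the brain. Granule cells receive mossy fibres, many of them from the pontine nuclei, and their axons, the parallel fibres, contact the Purkinje cell dendrites. In Purkinje cells, receptors at the cell surface raise inositol 1,4,5-trisphosphate (IP3), which opens IP3 receptors and releases calcium from internal stores. ZIC genes encode zinc finger transcription factors that act in the developing dorsal brain and continue to be transcribed in mature granule cells.

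The samples held 7784678 to 31083490 counts (median 10698602), with 10194866 to 15755102 in CBC and 9341544 to 11943509 in CBV. 1 cerebellar library stood apart from the others. The CBC library of Rhesus 4 had a Pearson correlation across genes of 0.927 with the median of the other CBC libraries, against at least 0.986 for the other 15 cerebellar libraries and a median of 0.988 over all libraries. In this library 30.4% of 16829 genes lay below and 35.5% above the range of the other 7 CBC libraries, and all 9 members lay outside it, 4 below and 5 above. Of the other Purkinje cell genes 5 of 14 lay below and 6 above, and of the other granule cell genes 5 of 13 lay below and 6 above, so neither cell type's list moved in 1 direction. The overlap with other samples, the CBC and CBV comparison and the sex differences of CDH15 and CA8 are given with and without this library or its animal. The cerebellar ranges of single genes include it, and it sets 1 end of several of them.

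All 9 members were higher in the cerebellum than in each of the other 15 region groups. The difference was largest for CDH15 and CRTAM, which had few counts elsewhere, and smallest for ITPR1, which the cerebral cortex and striatum also contained at a high level. A gene was called when edgeR's quasi-likelihood test over the groups gave a Benjamini-Hochberg adjusted p (FDR) under 0.05 and its fold was above 2 against every other group, which held for 1.73% of the genes tested. The median difference from the next-highest group, on the log2 scale, was 3.63 for the members and -0.90 for all genes tested. In bulk tissue, more cells of a type and more RNA per cell cannot be told apart.

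**Figure D1:**
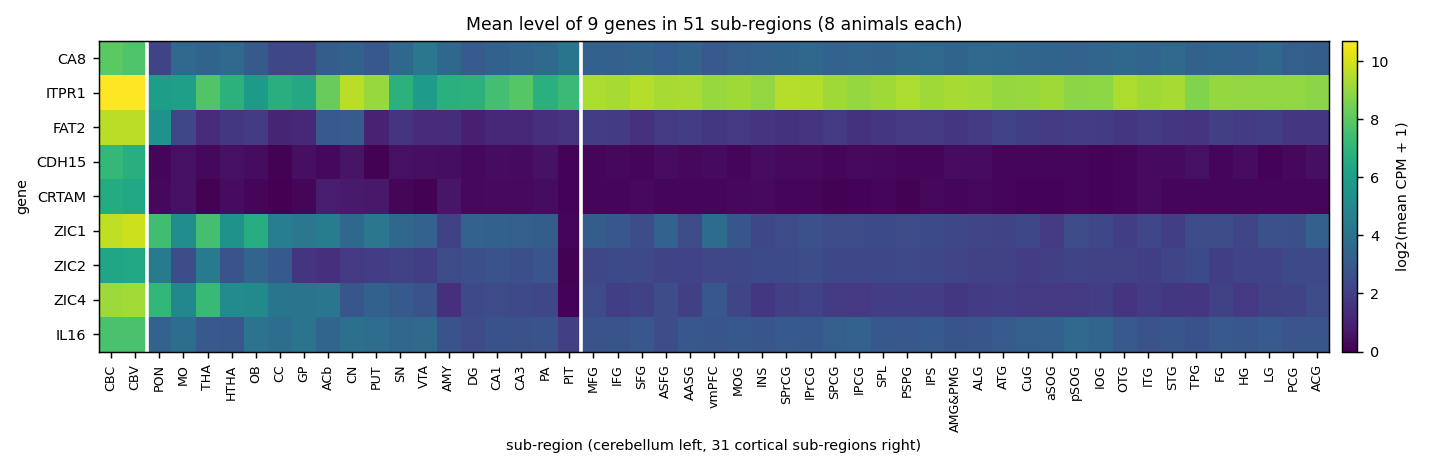
Mean levels of the 9 members (rows) in the 51 sub-regions (columns), coloured by log2(mean CPM + 1) over 8 animals. Brighter colours are higher levels. The CBC and CBV columns are the brightest in each row, ZIC1, ZIC2 and ZIC4 are also visible in the pons (PON) and thalamus (THA), FAT2 in the pons, and ITPR1 throughout the cerebral cortex and striatum.

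Of the Purkinje cell members, CA8 (ENSMMUG00000006437) encodes a carbonic anhydrase-related protein that binds the type 1 IP3 receptor. Its 16 cerebellar samples lay between 167 and 342 CPM with a median of 238, and the highest of the other 392 samples was the ventral tegmental area (VTA) of Rhesus 2, at 53.5. The groups did not overlap, which was so for all cerebellar samples against all others in 0.909% of genes. The difference from VTA, its next-highest group in the fit, was 3.78 ± 0.27 (log2FC ± SE, FDR = 1.3e-24, edgeR quasi-likelihood test). CA8 varied widely between animals in that group, from 4.22 to 53.5 CPM.

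ITPR1 (ENSMMUG00000012574) encodes the type 1 IP3 receptor itself, the calcium channel to which CA8 binds. It ran from 283 to 2268 CPM in the cerebellum with a median of 1699, and reached 985 CPM elsewhere, in the inferior precentral gyrus of Rhesus 6. The overlap came from the CBC library of Rhesus 4 alone, at 283 CPM, since the other 15 cerebellar samples started at 1420. Without that library all 9 members were above every sample from elsewhere, as were 1.19% of genes, and with it 8 were. The difference from the cerebral cortex, the next-highest group, was 1.57 ± 0.27 on the log2 scale (FDR = 2.5e-07, edgeR).

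FAT2 (ENSMMUG00000003497) encodes a giant atypical cadherin found on the parallel fibres of granule cells. It lay between 467 and 1044 CPM in the cerebellum (median 785), and the highest sample elsewhere was the pons of Rhesus 11, at 61.6 CPM. No other group came near the pons for this gene, and the difference of the cerebellum from the pons was 4.20 ± 0.22 on the log2 scale.

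CDH15 (ENSMMUG00000012100) encodes M-cadherin, an adhesion molecule of muscle precursors that granule cells also make. It lay between 79.2 and 363 CPM in the cerebellum (median 108), while no sample from elsewhere exceeded 1.11 CPM. The 363 CPM was the CBC library of Rhesus 4, and the other 7 CBC libraries reached at most 132. Outside the cerebellum CDH15 had at most 16 counts in a sample, and 299 of 392 samples had 3 or fewer, of which 72 had none. The difference from the entorhinal and perirhinal cortex (PA), the next-highest group, was 8.16 ± 0.31 on the log2 scale. The 5 skeletal muscle markers (MYOD1, MYF5, MYOG, CKM, ACTA1) together reached at most 6.06 CPM in the cerebellum and 11.4 in the cerebral cortex, and MYF5 was at 0 in all 16 cerebellar samples. In the CBC library of Rhesus 4, which held the highest CDH15, ACTA1 was at 4.83 CPM against 0.0907 to 1.20 in the other 7 CBC libraries. The other 4 muscle markers lay within the range of those 7, and 35.5% of all genes lay above it in this library.

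CRTAM (ENSMMUG00000002922) encodes an immunoglobulin-family adhesion protein best known from activated T cells and natural killer cells. It lay between 64.1 and 122 CPM in the cerebellum (median 85.1) and did not exceed 1.18 CPM elsewhere, where 329 of 392 samples had 3 counts or fewer and 120 had none. The lymphocyte markers measured were the 5 genes CD3E, CD3G, CD8A, NKG7 and IL7R. Together they gave 0.791 to 5.04 CPM in CBC and 1.00 to 4.93 in CBV, against 0.552 to 11.2 in the cerebral cortex. Of the 3 with enough counts to test, 1 was higher in the striatum than in the cerebral cortex and 2 were in the medulla. In these groups 8.73% and 15.8% of genes were higher. The part of lymphocytes in the CRTAM level was not tested. The difference of CRTAM from the striatum, its next-highest group, was 7.05 ± 0.28 on the log2 scale.

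The ZIC genes were high in the cerebellum and came second in the thalamus and pons. ZIC1 (ENSMMUG00000004742) lay between 666 and 1258 CPM in the cerebellum with a median of 838, against at most 251 CPM elsewhere, in the thalamus of Rhesus 10. ZIC4 (ENSMMUG00000004741), which neighbours ZIC1 in the RefSeq gene table used here (assembly T2T-MMU8v2.0), lay between 467 and 753 CPM (median 563), against at most 183 CPM, in the pons of Rhesus 2. ZIC2 (ENSMMUG00000014822) lay between 60.3 and 104 CPM (median 82.3), against at most 26.9 CPM. None of the 3 genes overlapped between cerebellar and other samples. On the log2 scale ZIC1 differed from the thalamus by 2.30 ± 0.23, ZIC4 from the thalamus by 1.98 ± 0.23 and ZIC2 from the pons by 1.98 ± 0.20. With a fold above 4 in place of 2, ITPR1, ZIC2 and ZIC4 were no longer called, and the other 6 were.

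IL16 (ENSMMUG00000011555) encodes a precursor that yields a cytokine in lymphocytes and, in a longer neuronal form with PDZ domains, a scaffold in granule cells. It lay between 146 and 263 CPM in the cerebellum (median 195), against at most 23.02 CPM elsewhere, in the medulla oblongata (MO) of Rhesus 6. The difference from the globus pallidus (GP), its next-highest group, was 3.63 ± 0.15 on the log2 scale, and the groups did not overlap.

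Genes of the same cells that are not members followed in part. Of 14 other Purkinje cell genes 6 passed the same test in the cerebellum, among them the LIM homeobox gene LHX1 (3.08 on the log2 scale over its next-highest group), the glutamate transporter gene SLC1A6 (2.84), the scaffold gene HOMER3 (2.08) and PVALB (1.43), which encodes a calcium-binding protein. Of 13 other granule cell genes 8 passed, led by the GABA-A receptor subunit gene GABRA6 (10.15) and by CBLN3 (6.58), which encodes a cerebellin. The NMDA receptor subunit gene GRIN2C (2.68) and ZIC5 (2.66), the neighbour of ZIC2, followed. Of 11 genes of IP3 signalling, HOMER3 alone passed, and their median difference was -1.30 against -0.90 for all genes tested. No gene of the lists for astrocytes and Bergmann glia, oligodendrocytes, choroid plexus, meninges, lymphocytes, microglia, telencephalic neurons or muscle passed in the cerebellum. The 4 telencephalic neuron markers together gave 1.44 to 13.1 CPM in the cerebellum and 223 to 472 in the cerebral cortex.

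CBC and CBV held the members at similar levels, and none of the 9 was called between them with all 8 animals. The comparison asks whether the cerebellar cortex and vermis samples differ within an animal. At an FDR under 0.05 and a fold above 2, 0.119% of genes were higher and 0.105% lower in CBC, and at FDR alone 0.505% and 0.337%. At an unadjusted p under 0.05 in edgeR 2 members passed, CA8 and ZIC1, and DESeq2 called 0 members at its FDR and the same fold. CA8 was at 257 ± 49.3 CPM in CBC against 217 ± 23.4 in CBV (SD, n = 8), with CBC higher in 7 of 8 animals and a log2FC of 0.22 ± 0.09 (FDR = 0.34, edgeR). Rhesus 4 was the exception. Without Rhesus 4, CA8 was higher in CBC in 7 of 7 animals, with a log2FC of 0.30 ± 0.05 (FDR = 0.0020, edgeR), past FDR alone though under a 2-fold change, where 2.4% of genes were higher and 1.9% lower in CBC at FDR alone and 0.168% and 0.126% with a fold above 2. No other member passed FDR in these 7 animals, and ZIC1 came nearest, with a log2FC of -0.17 ± 0.05 (FDR = 0.055).

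The ZIC genes leaned the other way by small amounts. ZIC1 was at 816 ± 131 CPM in CBC and 932 ± 167 in CBV, with CBC higher in 1 of 8 animals (log2FC -0.20 ± 0.06, FDR = 0.23, edgeR). ZIC4 was lower in CBC in all 8 animals, at 560 ± 85.1 against 600.2 ± 84.1 CPM (log2FC -0.11 ± 0.06, FDR = 0.39), and ZIC2 in 7 of 8 (-0.14 ± 0.07, FDR = 0.39). These differences did not pass the test. The differences for ITPR1 (-0.17 ± 0.26), FAT2 (-0.03 ± 0.09), CDH15 (0.27 ± 0.17), CRTAM (0.13 ± 0.07) and IL16 (-0.02 ± 0.07) did not pass either, and those of ITPR1 and FAT2 became 0.11 and 0.0013 without Rhesus 4. No gene of the other Purkinje, granule or IP3 lists was called between CBC and CBV at a fold above 2.

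**Figure D2:**
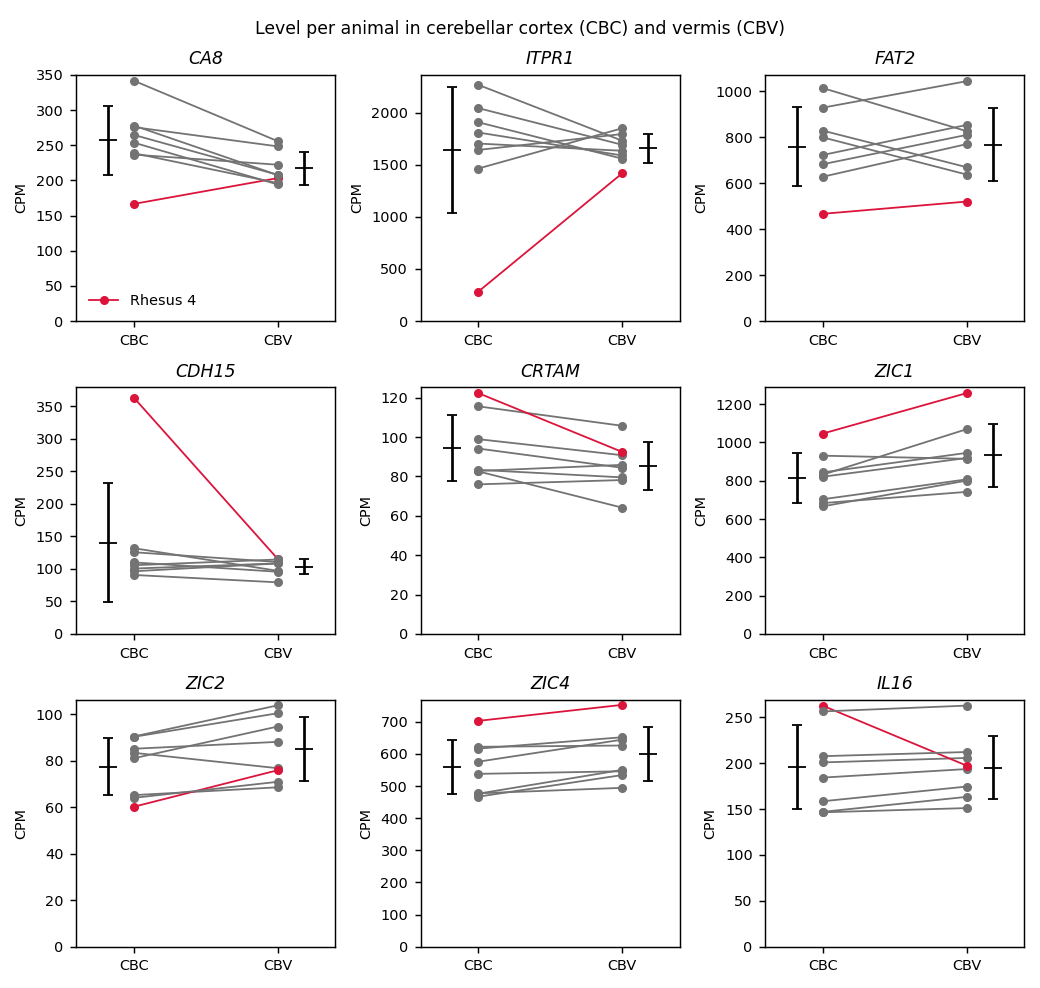
Levels (CPM) of the 9 members in CBC and CBV, with a line joining the samples of each of the 8 animals, Rhesus 4 in red, and the mean ± SD beside them. The CBC sample of Rhesus 4 lies below the other 7 for CA8, ITPR1, FAT2 and ZIC2 and above them for the other 5, with ITPR1 at 283 CPM and CDH15 at 363 CPM.

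In the CBC library of Rhesus 4 the Purkinje cell members were low and the granule cell members mixed. ITPR1 was at 283 CPM against 1465 to 2268 in the other 7 CBC libraries, and CA8 at 167 against 237 to 342. FAT2 was at 467 CPM against 628 to 1014 and ZIC2 at 60.3 against 64.1 to 90.5. CDH15 was at 363 CPM against 90.6 to 132, and CRTAM, ZIC1, ZIC4 and IL16 also lay above the other 7. Among other Purkinje cell genes, the nuclear receptor gene RORA was at 1.05 CPM against 9.42 to 30.3, whereas HOMER3 was at 421 against 68.4 to 128.3. The CBV library of the same animal, with a correlation of at least 0.986, did not stand apart.

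Outside the cerebellum the members were far from uniform. The comparison of the 14 remaining region groups with the cerebral cortex gave 126 pairs of a member and a group, of which 33 were higher (12.4% of all gene and group pairs) and 26 lower (12%) at an FDR under 0.05 and a fold above 2 in edgeR. The pons, striatum, medulla and olfactory bulb (OB) each had 4 members higher, where 11.6%, 8.73%, 15.8% and 12.5% of genes were higher. The pituitary (PIT) had 6 lower and none higher, where 23.3% of genes were lower and 21.4% higher. The hippocampus (6.05% of genes higher) and VTA (14.8%) had no member higher, and the striatum (8.18% of genes lower) none lower. ZIC1 and ZIC4 were each higher in 9 groups, ITPR1 was lower in 13, and the other members changed in 3 to 6 groups each.

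**Figure D3:**
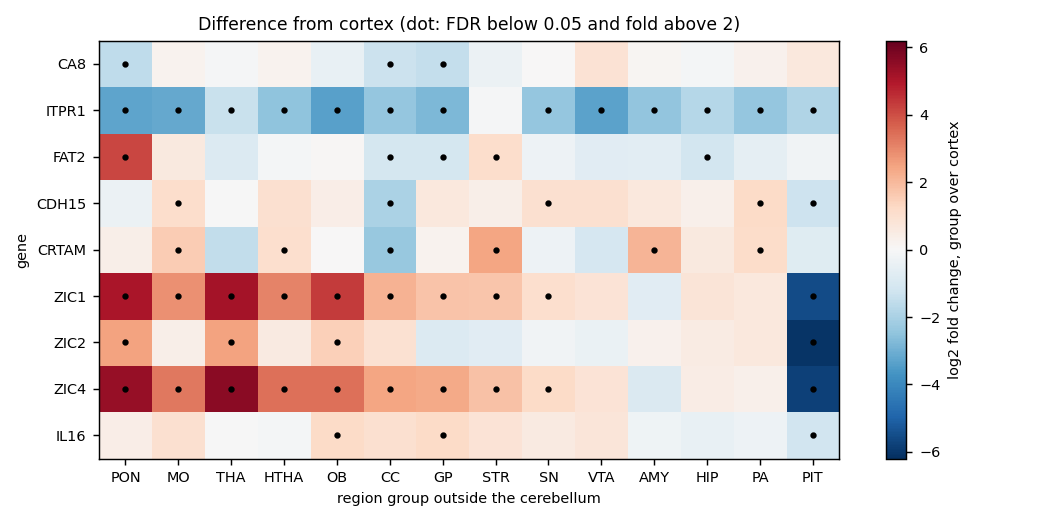
Differences (log2FC) of the 9 members in 14 region groups from the cerebral cortex, with higher values in red, lower values in blue and a dot on pairs past FDR < 0.05 and a fold above 2 (edgeR, 8 animals). ZIC1 and ZIC4 are dotted in the same 10 columns, FAT2 stands out in the pons at 4.12, and ITPR1 is lower in every column but the striatum.

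ZIC1, ZIC2 and ZIC4 were all higher in the thalamus, pons and olfactory bulb than in the cerebral cortex. ZIC1 in the thalamus ran from 127 to 251 CPM (median 175) and in the pons from 126 to 227 (median 175), against an animal mean of 5.02 in the cerebral cortex. The differences were 5.16 ± 0.26 and 5.07 ± 0.26 on the log2 scale, and 9.81% of genes were higher in the thalamus and 11.6% in the pons. ZIC4 differed by 5.59 ± 0.27 and 5.39 ± 0.27, and ZIC2 by 2.48 ± 0.21 in both groups, each higher in 8 of 8 animals. All 16 samples of thalamus and pons were above the other 376 samples outside the cerebellum for ZIC1 (next 122 CPM, in OB) and ZIC4 (next 83.1 CPM, in the hypothalamus, HTHA), a separation seen in 0.0297% of genes. For ZIC2 they overlapped with OB, which reached 16.8 CPM against a lowest sample of 13.6.

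ZIC1 and ZIC4 did not keep a fixed proportion. In OB, ZIC1 was at 102 ± 16.7 CPM and ZIC4 at 32.8 ± 2.11 (SD, n = 8). The ratio of their summed counts was 3.02 in OB, the highest of the 51 sub-regions, and 1.55 in CBV, 1.48 in CBC, 1.28 in the pons and 1.20 in the thalamus. The 6 genes of the meninges and fibroblast list were all higher in OB than in the cerebral cortex (median log2FC 3.09, background 12.5%), and their part in the ZIC levels was not tested.

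The hypothalamus and medulla held ZIC1 and ZIC4 at intermediate levels with a wide spread. ZIC1 ran from 13.4 to 100.2 CPM in the hypothalamus and ZIC4 from 10.2 to 83.1, with Rhesus 6 lowest and Rhesus 11 highest for both. The hypothalamus library of Rhesus 6 stood apart from the others of its sub-region, with a correlation of 0.960 and ITPR1 at 506 CPM. In paired contrasts chosen after the data were seen, the thalamus exceeded the hypothalamus by 2.08 ± 0.23 for ZIC1, 2.15 ± 0.24 for ZIC4 and 1.91 ± 0.21 for ZIC2 on the log2 scale, where 5% of genes were higher in the thalamus. The pons exceeded the medulla by 2.25 ± 0.23, 2.13 ± 0.24 and 2.13 ± 0.22, where 3.45% of genes were higher in the pons. Without the hypothalamus and medulla libraries of Rhesus 6 the thalamus exceeded the hypothalamus by 1.94 ± 0.22 for ZIC1, 2.01 ± 0.23 for ZIC4 and 1.86 ± 0.22 for ZIC2, and the pons exceeded the medulla by 2.18 ± 0.22, 2.00 ± 0.23 and 2.12 ± 0.23. ZIC1 and ZIC4 were also higher than in the cerebral cortex in the corpus callosum (CC), globus pallidus, striatum and substantia nigra, with log2FC from 1.04 ± 0.23 for ZIC1 in the substantia nigra to 2.44 ± 0.25 for ZIC4 in CC, where 20.2% of genes were higher.

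In the pituitary the ZIC genes were near the limit of detection. Over 8 pituitary libraries ZIC1 had 10 counts and ZIC4 had 5, and ZIC2 did not exceed 0.132 CPM. All 3 were called lower than in the cerebral cortex, as were 23.3% of genes. ITPR1, IL16 and CDH15 were the other members called lower there, CDH15 at no more than 3 counts in a library.

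FAT2 was high in the pons, apart from every other group outside the cerebellum. The 8 pons samples lay between 29.1 and 61.6 CPM with a median of 41.3, and every one was above the other 384 samples, whose highest was the nucleus accumbens of Rhesus 2 at 15.0 CPM. Such a separation of the pons was seen in 0.315% of genes. The difference was 4.12 ± 0.22 from the cerebral cortex and 3.52 ± 0.23 from the medulla on the log2 scale (FDR = 6.7e-34 and 2.3e-25, edgeR).

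Most other granule cell genes were not higher in the pons than in the cerebral cortex. GABRA6 lay between 0.168 and 0.777 CPM in the pons and between 710 and 1241 CPM in the cerebellum. NEUROD1, a transcription factor gene, was at 0.152 ± 0.104 CPM in the pons against 342 ± 59.3 in CBC. Of the 13 other granule cell genes 2 were higher and 4 lower in the pons than in the cerebral cortex, against 11.6% and 13.3% of genes. ZIC5 was among the higher (1.24 ± 0.16). CA8 had its lowest mean of all sub-regions in the pons, at 3.56 ± 2.62 CPM (log2FC -1.56 ± 0.28 from the cerebral cortex), and CDH15 and CRTAM did not differ past the test. The oligodendrocyte markers together gave 28656 to 51989 CPM in the pons and 486 to 8146 in the cerebral cortex, and their part in the FAT2 level was not tested. In the medulla the same markers reached 29018 to 92582 CPM, with FAT2 at 1.16 to 6.35.

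**Figure D4:**
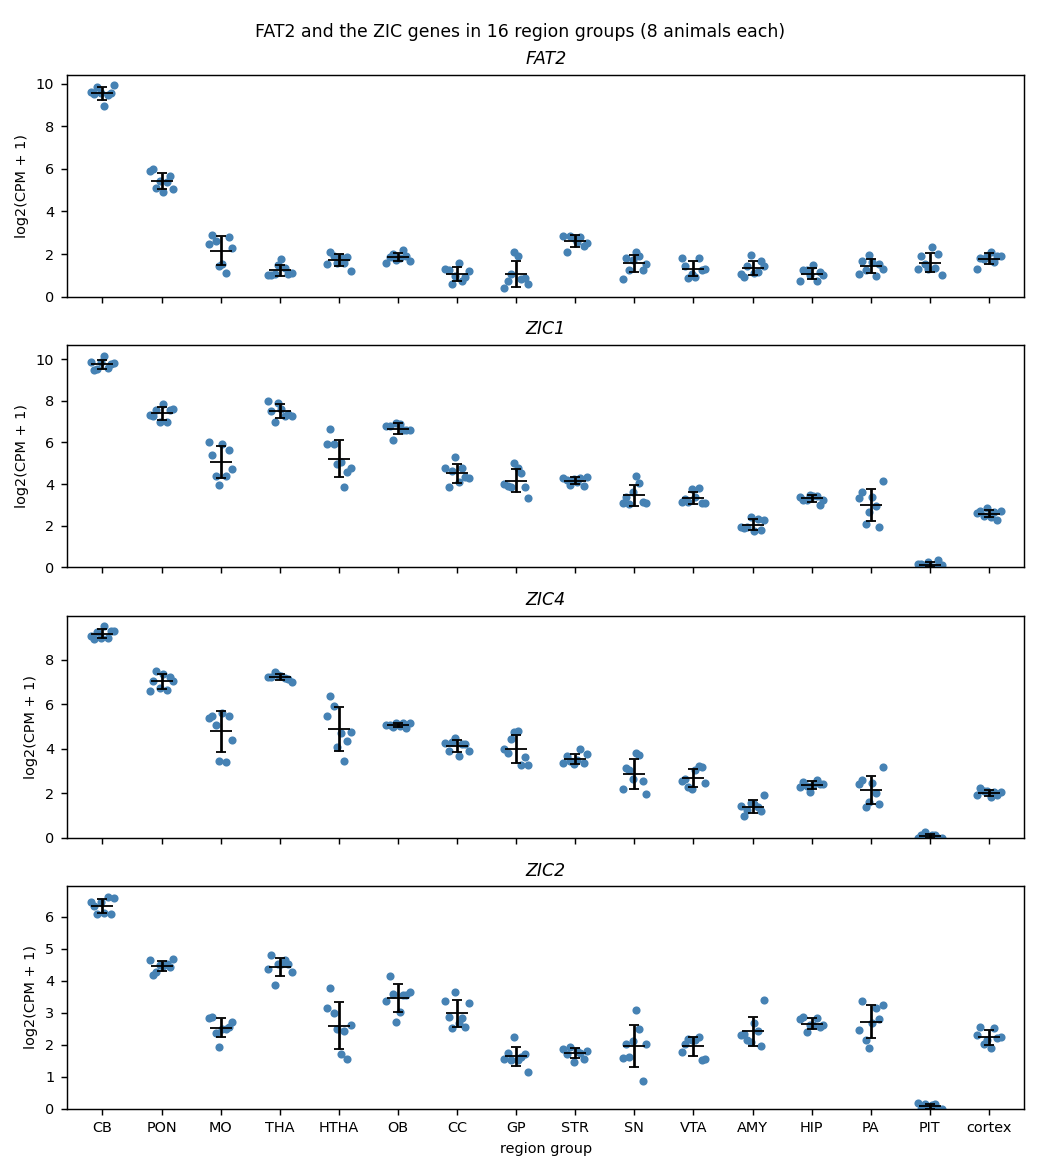
FAT2, ZIC1, ZIC4 and ZIC2 in the 16 region groups, as log2(CPM + 1), with a point for each of 8 animals and the mean ± SD. The pons is second to the cerebellum for FAT2 at 29.1 to 61.6 CPM, while the thalamus does not rise for FAT2 (1.00 to 2.40 CPM) but joins the pons for the 3 ZIC genes.

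ITPR1 was high in the cerebral cortex and striatum and lower in every other group outside the cerebellum. The striatum was at 533 ± 101 CPM and the cerebral cortex at 572 ± 108 (SD, n = 8), a difference of -0.09 ± 0.27 on the log2 scale (FDR = 0.80, edgeR). In the other 13 groups ITPR1 was lower than in the cerebral cortex, in 8 of 8 animals each, from -1.39 ± 0.27 in the thalamus to -3.38 ± 0.29 in OB, where 9.92% and 9.94% of genes were lower. These included the amygdala (109 ± 53.9 CPM), the hippocampus (175 ± 51.3) and PA (108 ± 19.8), where 4.5%, 6.31% and 3.4% of genes were lower, against 7.62% in the hypothalamus. In the hypothalamus Rhesus 6 stood apart at 506 CPM against 43.99 to 72.6 in the other 7, and the difference was -2.49 ± 0.29 with and -3.29 without the hypothalamus and medulla libraries of Rhesus 6. Its medulla library had the lowest correlation of all with the other libraries of its sub-region, 0.922, and its hypothalamus library 0.960.

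CA8 and IL16 were each called in 3 groups outside the cerebellum, CDH15 in 5 and CRTAM in 6. CA8 was lower than in the cerebral cortex in the pons, CC (-1.31 ± 0.27) and GP (-1.50 ± 0.28), where 24% and 17.8% of genes were lower. IL16 was higher in GP (1.21 ± 0.14) and OB (1.19 ± 0.14), at 16.5 ± 2.45 and 15.8 ± 2.12 CPM, where 17% and 12.5% of genes were higher, and lower in the pituitary (-1.16 ± 0.16). CRTAM was higher in 5 groups, led by the striatum (2.44 ± 0.26, higher in 8 of 8 animals) and amygdala (2.09 ± 0.36), where 8.73% and 5.03% of genes were higher, but its level stayed under 1.2 CPM in every sample. CDH15 was higher in PA, MO and the substantia nigra, at means of 0.377 to 0.430 CPM, where 5.51%, 15.8% and 14.4% of genes were higher. In CC both were lower than in the cerebral cortex, CRTAM by a log2FC of -2.34 ± 0.83 and CDH15 by -1.98 ± 0.69, at means of 0.0205 and 0.0427 CPM.

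The order of the 16 groups was resolved at few places. For each member, the 15 pairs of neighbours in the order of mean log2(CPM + 1) were compared by an exact two-sided sign-flip permutation test over the 8 animals. Of 135 pairs 22 reached the smallest p the test allows, 0.0078 (0.048 after Benjamini-Hochberg adjustment), and 9 of these were the step from the cerebellum to the next group. As the 22 share 1 p, their adjusted value depends on how many pairs reached it, these 9 included. The steps outside the cerebellum were not adjusted apart from these 9, so whether they would pass alone was not tested. FAT2 also separated between the pons and striatum, ITPR1 between the striatum and thalamus, and CA8 between OB and CC. ZIC1 separated between the pons and OB, OB and the hypothalamus, GP and the substantia nigra, the cerebral cortex and amygdala, and the amygdala and pituitary. ZIC4 separated between the pons and OB and at the last 2 of these steps, and ZIC2 between the thalamus and OB and between GP and the pituitary. The thalamus and pons, neighbours for all 3 ZIC genes, were not resolved (adjusted p from 0.57 to 0.99). CDH15, CRTAM and IL16 were not resolved below the cerebellum.

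Within the striatum the members separated the nucleus accumbens (ACb), caudate nucleus (CN) and putamen (PUT) in different ways. Of the 7 members with enough counts 6 passed the test over the 3 sub-regions, as did 57% of genes. ITPR1 was highest in CN, at 484 to 966 CPM (median 806), then PUT at 410 to 742 (median 512) and ACb at 150 to 576 (median 258). The ranges overlapped, and CN exceeded ACb by 1.44 ± 0.18 on the log2 scale within animals (FDR = 1.1e-05, edgeR). FAT2 was at 3.80 to 15.0 CPM in ACb and 3.18 to 11.1 in CN but 0.669 to 1.46 in PUT (ACb over PUT 2.64 ± 0.37, CN over PUT 2.79 ± 0.36).

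ZIC4 and ZIC1 were highest in ACb. ZIC4 was at 17.6 ± 5.24 CPM in ACb, 8.95 ± 1.97 in PUT and 6.17 ± 1.71 in CN, and ACb exceeded CN by 1.53 ± 0.17 on the log2 scale. For ZIC1 the level in CN was exceeded by 1.02 ± 0.20 in ACb and by 0.72 ± 0.20 in PUT. ZIC2 was instead lowest in ACb, with PUT above ACb by 0.72 ± 0.23 (FDR over the 3 sub-regions 0.030), a call that was lost when Rhesus 2, 6, 7, 8 or 11 was left out (FDR = 0.056 to 0.089). IL16 was lowest in ACb, at 10.4 ± 2.99 CPM against 14.3 ± 4.15 in CN. CA8 was just short of the threshold (FDR = 0.055), and it passed without Rhesus 6, 7 or 8 (FDR = 0.032 to 0.034).

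**Figure D5:**
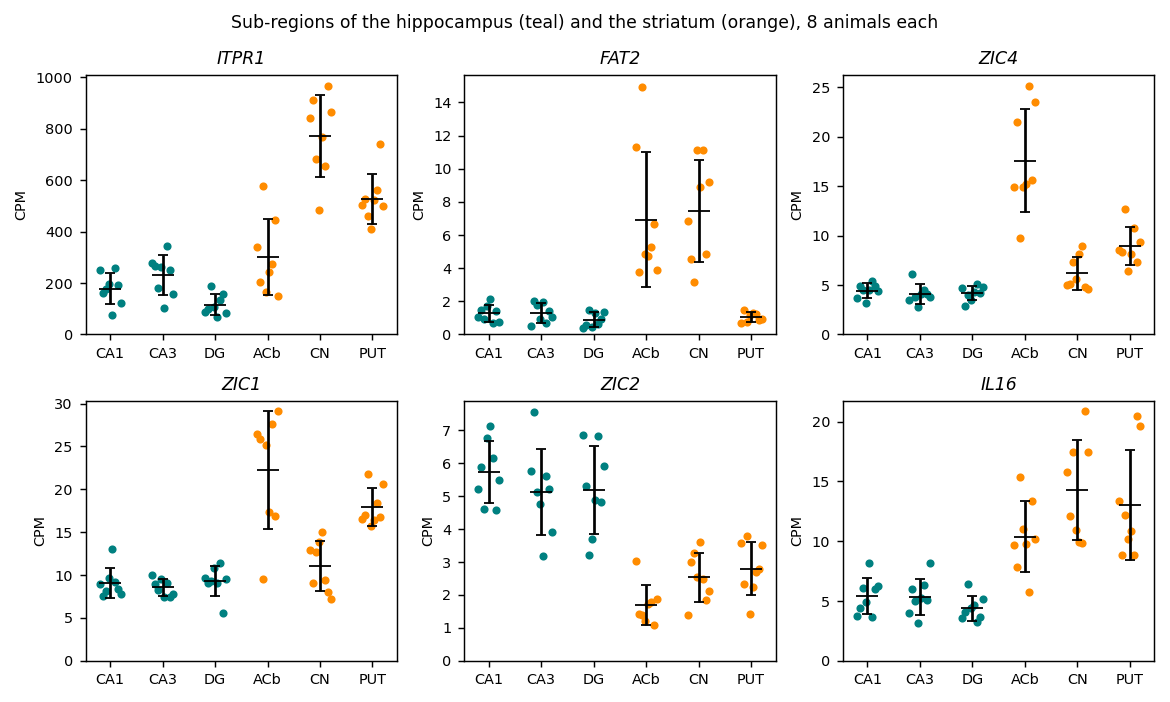
Levels (CPM) of ITPR1, FAT2, ZIC4, ZIC1, ZIC2 and IL16 in hippocampal CA1, CA3 and dentate gyrus (DG) and in striatal ACb, CN and PUT, with a point for each of 8 animals and the mean ± SD. FAT2 is near 1 CPM in PUT and in all 3 hippocampal sub-regions, and ITPR1 runs from a mean of 116 CPM in DG to 772 in CN.

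In the hippocampus ITPR1 alone of 7 members passed (FDR = 0.00026), against 32.7% of genes. It was at 104 to 345 CPM in CA3 (median 257), 73.9 to 257 in CA1 (median 183) and 68.1 to 187 in DG (median 104). The ranges overlapped, and within animals CA3 exceeded DG by 0.97 ± 0.14 and CA1 exceeded DG by 0.59 ± 0.14 on the log2 scale. DG also consists mainly of granule cells, of another lineage than those of the cerebellum, and FAT2 had its lowest mean of all sub-regions there, at 0.893 ± 0.439 CPM. The ZIC genes did not pass (FDR = 0.66 to 0.77).

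Within the cerebral cortex the members were low apart from ITPR1, yet all 7 tested varied between the 31 sub-regions, as did 75% of genes. ZIC1 was highest in the ventromedial prefrontal cortex (vmPFC), at 9.41 to 15.6 CPM, and lowest in the anterior superior occipital gyrus, at 1.81 to 4.32 (log2FC 2.34). For each gene the sub-regions named were picked as the highest and lowest of 31 means, which favours a wide difference. ZIC4 was also highest in vmPFC, at 6.50 ± 1.55 CPM, and lowest in the occipito-temporal gyrus, at 2.10 ± 0.56. IL16 had another pattern, with its highest level in the posterior superior occipital gyrus (9.01 to 14.9 CPM) and its lowest in the anterior superior frontal gyrus (3.39 to 6.80). Its mean over the occipital sub-regions was 10.1 CPM, against 6.04 to 7.36 in the other 4 lobes. ITPR1 ran from 402 ± 76.6 CPM in the temporal polar gyrus to 723 ± 182 in the superior precentral gyrus, and CA8 from 6.95 ± 2.58 in vmPFC to 11.96 ± 5.31 in the superior temporal gyrus. FAT2 and ZIC2 passed with smaller margins (FDR = 0.0046 and 0.00023) and did not without the animal as a block (FDR = 0.35 and 0.10).

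No member was called for age stage or sex in the cerebellum. With CBC and CBV summed within each animal, no member reached an FDR under 0.1 with an absolute log2FC above 1, and the shares of all genes that did were 0% upwards and 0.00652% downwards with mid age, and 0.0196% upwards and 0.0847% downwards in females. At an unadjusted p under 0.05 in edgeR, 4.2% and 2.56% of genes passed, with 1 member for age (IL16) and 1 for sex (CDH15), and DESeq2 called 0 members for either. IL16 was at 168 ± 24.4 CPM in mid-aged and 222 ± 30.1 in young animals (SD, n = 4 each), with overlapping ranges of 149 to 203 and 189 to 260 (log2FC -0.38 ± 0.13, FDR = 0.85, edgeR). Mid-aged and young animals did not overlap in 3.59% of genes, and in 4.02% without the CBC library of Rhesus 4. CDH15 was at 110.0 to 239 CPM in females and 84.9 to 104 in males, without overlap, as in 1.74% of genes. Its log2FC of 0.53 ± 0.20 (FDR = 0.99) became 0.24 without the CBC library of Rhesus 4, a female, and the groups still did not overlap, as in 1.88% of genes.

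Genes of like pattern were sought among 13212 genes by Pearson correlation of mean log2(CPM + 1) over the sub-regions, as a description across sub-regions that share animals and libraries. Over all 51, in which 2 cerebellar points weigh heavily, CDH15 was most like SLC22A31 (r = 0.99), CRTAM was most like CDH15 (r = 0.99), and GABRA6 was among the 3 most like genes of both. SLC22A31, a solute carrier gene, neighbours CDH15 in the RefSeq table. It lay between 12.8 and 37.8 CPM in the cerebellum, highest in the CBC library of Rhesus 4 as CDH15 was, and its mean was at most 0.370 CPM elsewhere. ZIC1 and ZIC4 were most like each other (r = 0.99), as ZIC2 was like ZIC5 (r = 0.97), and FAT2 was most like KASH5 (r = 0.96).

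Without CBC and CBV the ZIC pairs kept their partners and the others did not. Over the other 49 sub-regions r was 0.98 for ZIC1 and ZIC4 and 0.92 for ZIC2 and ZIC5. CDH15 and CRTAM fell to r = 0.30, at levels of few counts, and CA8 and CDH15 to 0.13. The gene most like CA8 was then CORO2A, at r = 0.62, and the gene most like ITPR1 was LTK, at r = 0.92.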

How the data were processed

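Ribo-zero RNA-seq was measured in 51 sub-regions of 8 animals. By the methods, the authors trimmed poor reads with Trim Galore 0.4.4, mapped them to Mmul 8.0.1 with HISAT2 2.0.5 and counted them on Ensembl genes with HTSeq 0.6.1. The deposited values are raw counts per gene. How the counting treated strand and overlaps is not given in the sources used here, so counts of neighbouring or overlapping genes (ZIC1 and ZIC4, ZIC2 and ZIC5, CDH15 and SLC22A31) and of antisense genes are uncertain.

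Of 30807 genes 17572 had a symbol in the reference table. Counts of a group were summed within each animal and tested with edgeR 4.0.16 in R 4.3.3 (TMM, filterByExpr, quasi-likelihood F test, FDR over all genes tested). The animal was a block for regions, and sex or age stage a covariate for the other. Same-numbered samples come from the same animal, per the labels. SE is the absolute log2FC divided by the root of F. The order of groups used means of sub-region CPM. Members and gene lists were chosen with earlier results of these data known. All members were named, with up to 4 genes past the threshold per list, those with the largest absolute log2FC among genes changed alike in every animal, and the 3 genes most like each member with at least 1 CPM in a sub-region.

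On simulated data 200 genes changed 4-fold were recovered as 200 for the cerebellum against the other groups (15953 genes), 194 for CBC against CBV (14359 genes) and 195 for age or sex (15419 genes), with 0, 0 and 19 other calls. Alternatives were DESeq2 1.42.0, its size factors in edgeR, other low-count filters, a fold above 4, fits without the block or covariate, CBC or CBV alone, each animal left out, a pseudocount of 0.1 and Spearman correlation. Leaving out the CBC library of Rhesus 4 or the hypothalamus and medulla libraries of Rhesus 6, calling CBC against CBV at FDR alone without Rhesus 4, and the contrasts of pons with medulla and thalamus with hypothalamus were added after seeing the data. Summaries and permutation tests used scipy 1.17.1, pandas 2.3.3, numpy 2.4.6 and Python 3.11.15. The 33 ATAC-seq samples and 8 midbrain samples were not used here.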

Additional observations from a re-analysis of the deposited data

Results flagged for a closer look

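In the 38 groups of 8 samples tested for a sample far from the rest, 2 values were far out. Chance gives about 1 group in 20 when the groups are independent. Both values were in the CBC library of Rhesus 4, in which all 9 members lay outside the range of the other 7 CBC libraries. The groups were thus not independent, and the count of 2 in 38 cannot be set against that rate. ITPR1 was at 283 CPM there, below the 1465 to 2268 CPM of the other 7 CBC libraries, with a gap of 0.595 of the whole range (critical value 0.526). CDH15 was at 363 CPM, above the 90.6 to 132 CPM of the other 7, with a gap of 0.849 of the range. In the same library HOMER3 was at 421 CPM against 68.4 to 128.3.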

How the results depend on the processing

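Genes with few counts outside the cerebellum (CDH15, CRTAM) are limited by depth. All 9 members were called in the cerebellum under DESeq2, its size factors, both other low-count filters, CBC or CBV alone and with any animal left out. The count of genes, 291, was 270 to 281 with DESeq2, its size factors, CBC or CBV alone, 412 and 429 with the other filters and 277 to 292 with an animal left out, and a fold above 4 left 79 genes and 6 members. Outside the cerebellum a fold above 4 left 22260 of 57504 gene and group pairs and 32 of 59 member pairs. Between CBC and CBV no member was called in these alternatives at a fold above 2, while the count of genes was 32, 120 at FDR alone and 17 to 42 with an animal left out (19 without Rhesus 10, 18 without Rhesus 2, 3 or 8, 17 without Rhesus 7), and at FDR alone without Rhesus 4, chosen after seeing the data, it was 614, with 1 member, CA8, and ITPR1 at 0.11 and FAT2 at 0.0013. In the fits with no replicate block, so without pairing by animal, the counts of genes were 10 for CBC against CBV, 2272 for the hippocampus (4836 with the block) and 5503 for the striatum (8446), and 5 members were called in the striatum, without IL16 (FDR = 0.19), and 5 of 7 in the cortex, without FAT2 (FDR = 0.35) and ZIC2 (FDR = 0.10). Leaving out an animal gave 1 to 2 members in the hippocampus, with CA8 added without Rhesus 2 (FDR = 0.047). With mid age 0 genes were higher and 1 lower, 69 and 59 with no low-count filter, and 12 and 6 with DESeq2. In females 3 were higher and 13 lower, 69 and 42 with no low-count filter, and 11 were higher with DESeq2, 5 without the CBC library of Rhesus 4 and 3 to 6 with an animal left out (6 without Rhesus 6). No member was called by age or sex in any. Differences that changed sign with an animal left out, none of them called, ranged between CBC and CBV from -0.25 to 0.11 for ITPR1 and -0.0812 to 0.0089 for FAT2, by age stage from -0.0913 to 0.19 for FAT2 and -0.0266 to 0.21 for ZIC2, and by sex from -0.14 to 0.0854 for CA8, -0.37 to 0.0161 for ITPR1, -0.0747 to 0.11 for ZIC1 and -0.0296 to 0.20 for ZIC2. The sex difference of CA8 was 0.0274 without the CBC library of Rhesus 4. Of 27 genes of like pattern 4 were shared with Spearman correlation over 51 and 4 over 49 sub-regions, and 16 over 49 with a pseudocount of 0.1. The cause of these changes was not tested.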
